A study of Oncorhynchus mykiss with 42 samples.

Results

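Fragments of immature rainbow trout testis kept for 96 h without hormone were compared with the same kind of tissue before culture. The comparison rests on 9 of the 42 arrays of the study, chosen by their titles: 6 arrays of cultured stage I-II testis without hormone (Ctrl) and 3 arrays of stage I-II testis taken before culture (T0). Arrays of stage I-II testis cultured for 96 h with 500 ng/mL of purified salmonid FSH (6 arrays) or LH (6 arrays) served to ask whether either hormone brought the changed transcripts back towards their level at T0. Culture was at 12 °C on membrane inserts in modified L15 medium with a serum substitute, and the medium was changed at 48 h. The T0, Ctrl, FSH and LH groups of stage III testis (3, 6, 6 and 6 arrays) were used to read the changed clones in other tissue. They enter the choice of those clones only through the spread that all 42 arrays share in the fit. All fish came from an all-male population, and incubations were run in 6 replicates. Neither their age nor which fish gave which sample is stated, so p-values measure the spread between these samples, which may be technical. Each array is 1 nylon membrane spotted with cDNA clones and hybridised with radioactively labelled cDNA made from 5 µg of total RNA of whole testis.

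In the fish testis, germ cells develop within cysts formed by Sertoli cells, and Leydig cells between the tubules make androgens. FSH and LH from the pituitary act on receptors of these somatic cells. A testis taken out of the fish loses the supply of both hormones, its blood flow and its nerves at once, so a hormone-free explant is the baseline against which added hormone is read. Early stages of the trout testis hold mainly spermatogonia, the dividing germ cells before meiosis.

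The deposited log2 values were read by clone ID. Of 9216 rows, 8175 held values and were tested. The 64 rows named water and 128 named cvu03687 held none, nor did 849 clones. The files used here do not pair clones with genes, so the clones are given by ID, neither cell type markers nor gene lists could be checked, and the tissue label was not tested. Values are log2 signals, on which a difference of 1 is a 2-fold difference. Adjusted p-values are from limma with the Benjamini-Hochberg method over the 8175 clones, and a clone is called where that p is under 0.05.

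On the first principal component of all 42 arrays (28.3% of the variance), the Ctrl arrays lay at 10.3 to 12.8 and the stage I-II T0 arrays at -31.8 to -25.9. The FSH arrays lay at 14.2 to 15.7 and the LH arrays at 12.9 to 15.5, on the far side of Ctrl from T0. The FSH arrays split on the third component (8.9%). Replicates 26, 27 and 30 lay at 11 to 19.2 and replicates 25, 28 and 29 at -12.8 to -4.6. The LH arrays ran there from -4.1 to 14.8 and the Ctrl arrays from -9.9 to 1.2. Stage III Ctrl split there as well, with replicates 58 and 60 at 10 and 6 and the others at -17.6 to -10.6. The median clone signal of the scanner was 132 to 167 intensity units on Ctrl arrays and 116 to 125 on T0 arrays. The 128 positions taken as a repeated control spot gave a median signal of 178 to 236.5 with FSH, 103.5 to 148 with LH, 231.5 to 420 in Ctrl and 550.5 to 955.5 at T0. Their level thus moved with the groups compared below, and counts with this level as a covariate are given beside the results they move.

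Hormone-free culture changed many of the measured clones, in both directions and mostly by less than 2-fold. In Ctrl, 1142 clones were higher than at T0 (14.0% of those tested) and 1112 were lower (13.6%), 2254 in all (27.6%). The median change was 0.76 among the higher clones (quartiles 0.56 and 1.08) and -0.63 among the lower ones (quartiles -0.86 and -0.51), against -0.04 over all clones. The deposited values at a given rank had a median range of 0.02 over the arrays. A shift common to most clones could thus hardly show, and higher and lower are relative to the other clones. Since whole tissue was measured, fewer cells of a type and less RNA per cell cannot be told apart. In the called set, 70.4% of the higher and 83.1% of the lower clones changed by less than 2-fold. The large changes were mainly rises. At least 2-fold, 338 clones were higher (4.13% of those tested) and 188 lower (2.30%). At least 4-fold, there were 46 higher clones (0.563%) and 19 lower ones (0.232%), and at least 8-fold 12 higher (0.147%) and 2 lower (0.0245%).

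The arrays of a group lay close together, with a median SD over clones of 0.18 in Ctrl (n = 6) and 0.20 at T0 (n = 3). All 6 Ctrl arrays lay above all 3 T0 arrays for 962 of the 1142 higher clones (84.2%), where 14.6% of all clones did so. They lay below all T0 arrays for 886 of the 1112 lower clones (79.7%), against 15.3% of all clones. The number of lower clones depended on T0 replicate 2: without it 863 clones were higher and 713 lower. With the level of the control positions as a covariate 767 were higher and 653 lower (limma).

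**Figure D1:**
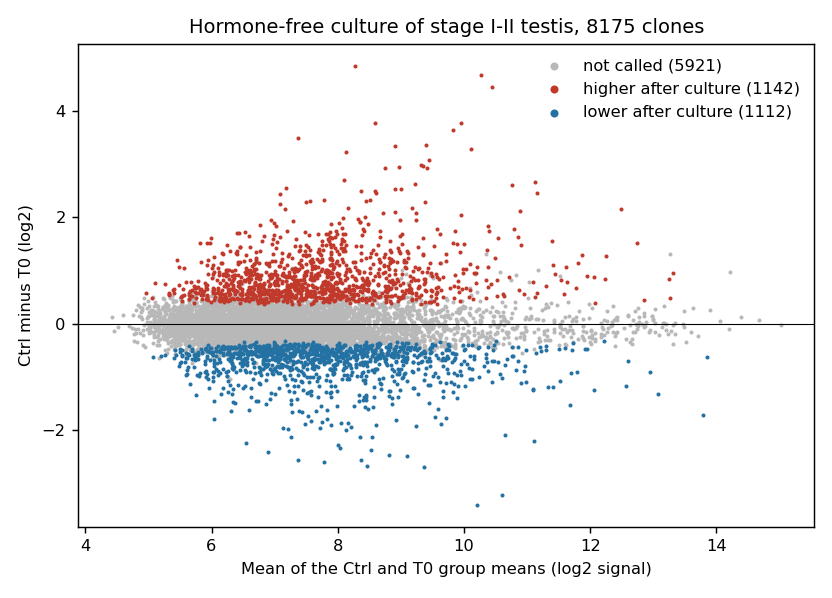
Difference between Ctrl and T0 (log2) for each of 8175 clones against the mean of the Ctrl and T0 group means (log2 signal), with the 1142 clones called higher in red, the 1112 called lower in blue and the rest in grey. The clone with the greatest measured difference, 4.85, was not above background on any T0 array. The greatest fall is -3.41.

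The clones with the greatest rise rose the furthest from T0 and stayed there with either hormone. Clone tcay0009.l.07 ran from 12.32 over a median of 12.63 to 12.88 on the 6 Ctrl arrays, against 7.71, 8.16 and 7.92 on the T0 arrays. The groups are far apart, with every Ctrl array over 4 log2 units above every T0 array. Its mean was 12.60 ± 0.21 in Ctrl and 7.93 ± 0.23 at T0 (SD, n = 6 and 3), which is 25.5-fold higher in Ctrl (4.67 ± 0.17 on the log2 scale, ± SE; adjusted p = 2.1e-26 by limma). With FSH it ran from 12.33 to 12.67 and with LH from 12.32 to 12.88, both within the range of the Ctrl arrays. Clone tcbk0019.f.14 ran from 10.60 over a median of 10.64 to 10.87 in Ctrl, against 6.11, 5.58 and 5.85 at T0. No T0 array was above background for it, so the rise is given as a bound, at least 18.5-fold (limma adjusted p = 1.5e-26). Its FSH arrays (10.26 to 11.01) and LH arrays (10.45 to 11.07) overlapped with Ctrl.

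The clones with the greatest fall were bright at T0 and remained measurable after culture. Clone tcbk0040.p.09 ran from 8.33 over a median of 8.46 to 8.86 in Ctrl, against 12.10, 12.02 and 11.63 at T0, with no overlap. The mean was 8.50 ± 0.19 in Ctrl and 11.92 ± 0.25 at T0 (SD, n = 6 and 3), which is 10.7-fold lower in Ctrl (-3.41 ± 0.17 on the log2 scale, ± SE; adjusted p = 4.5e-21 by limma). Clone tcba0024.p.18 ran from 8.86 over a median of 8.95 to 9.21 in Ctrl, against 12.06, 12.41 and 12.18 at T0. It was 9.32-fold lower in Ctrl (log2 change -3.22 ± 0.17 SE, limma adjusted p = 4.4e-20), again with all Ctrl arrays below all T0 arrays. Both hormones were followed by lower, not higher, means of these clones. For tcbk0040.p.09 the mean was 7.95 with FSH and 8.01 with LH, each lower than Ctrl (log2 changes -0.55 and -0.49, limma adjusted p = 0.019 and 0.037), further from T0. For tcba0024.p.18 the FSH arrays (8.26 to 8.60) all lay below the Ctrl arrays (log2 change -0.57, limma adjusted p = 0.015), while the LH mean of 8.63 did not pass the test (log2 change -0.37, limma adjusted p = 0.13).

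**Figure D2:**
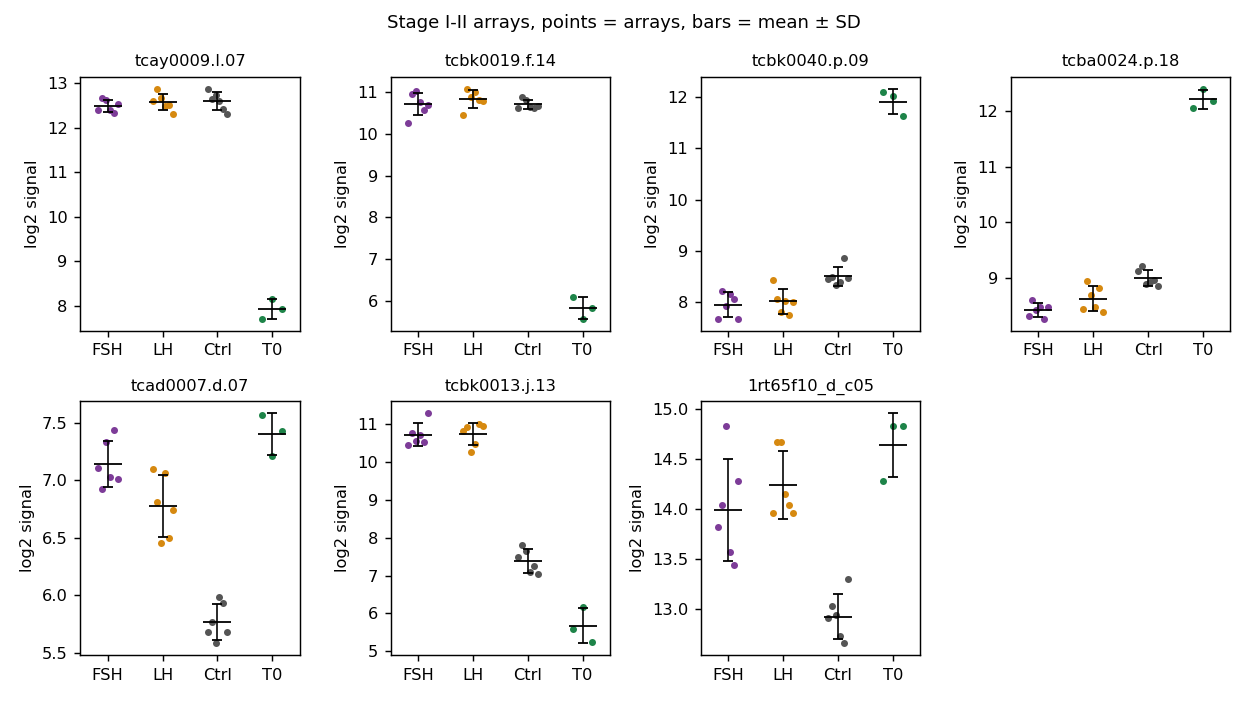
Log2 signal on each stage I-II array for 7 clones, with FSH, LH and Ctrl (n = 6 each) and T0 (n = 3) from left to right, points for arrays and bars for mean ± SD. In the upper row the cultured groups lie together, away from T0, and in the lower row the hormone groups differ from Ctrl.

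Changes were called more often among bright clones. The clones were put into 4 equal classes by the mean of their Ctrl and T0 group means, which weights both groups alike. In the dimmest class, 7.64% were higher and 7.05% lower in Ctrl. In the brightest class these shares were 18.8% and 20.8%, and 146 of the 338 clones that were higher by at least 2-fold lay there, as did 92 of the 188 that were lower. In each class more of the clones changed at least 2-fold were higher than lower. The signal limits what the dim clones can show. Of the higher clones, 209 were above background on no T0 array, and 108 of these were above background on all 6 Ctrl arrays. Of the lower clones, 151 were above background on no Ctrl array, and 40 of these were above it on all 3 T0 arrays. A further limit is that 83 called clones were below background on every Ctrl and T0 array, so their change has no fold.

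The clones carry IDs of several series, named here by the letters before the plate number. Among series of at least 80 tested clones, the share called higher ran from 8.08% (tcaa, 99 clones) to 18.1% (tcav, 144 clones), beside 14.0% over all. The share called lower ran from 10.4% (tcav) to 20.2% (tcaa), beside 13.6% over all. The largest series lay between, with 13.4% higher and 12.6% lower among 2834 clones of 1rt, and 13.1% and 16.5% among 1888 clones of tcbk. The series tcal was singled out after its values were seen. Of its 8 clones, 7 were lower in Ctrl, by -1.18 to -0.46, and tcal0001.a.05 had a log2 change of 0.17 (limma adjusted p = 0.51). In stage III, 6 of these 7 were lower as well, by -2.03 to -0.63, while tcal0001.a.05 was higher (log2 change 0.54, limma adjusted p = 0.0097). By the match described under processing, 4 of the 8 lay next to each other in a row of the same block, and whether they are separate measurements was not tested.

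The same clones were read in stage III tissue, whose means did not enter their choice, although its spread did. The stage I-II response was shared in large part. Of the 1142 clones higher in stage I-II Ctrl, 777 (68.0%) were also higher in stage III Ctrl than at stage III T0, where 16.2% of all clones were. A further 354 were not called and 11 were lower. Of the 1112 lower clones, 517 (46.5%) were lower in stage III, against 16.8% of all clones, 575 were not called and 20 were higher. The median stage III change was 0.70 for clones higher and -0.39 for clones lower in stage I-II, beside -0.04 over all clones. Among the 526 clones that changed at least 2-fold in stage I-II, 401 (76.2%) had the same call in stage III.

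A missing call in stage III does not show a different response, so the difference between the stages was tested as an interaction. It passed for 661 clones (8.09%) of all those tested, with a more positive change in stage I-II for 4.02% and a more negative one for 4.06%, and for 373 (16.5%) of the 2254 clones changed in stage I-II. The changed clones were chosen by a stage I-II change that enters this test, which favours passing it. The 16.5% therefore cannot be read as a stage difference particular to them. Of the 929 changed clones without a call in stage III, 215 passed this test, which the missing call favours as well. All 31 clones with opposite calls passed it, which calls of opposite sign make nearly certain. Of the 1294 with the same call, 127 passed. In 66 of these 127 the stage I-II change was the greater in size, and in the rest the stage III change was. All 4 leading clones were among these 127, and tcbk0019.f.14 was above background on no T0 array at either stage. The named clones were chosen by their stage I-II changes, which enter this test. That choice alone favours a larger response in stage I-II. The rise of tcay0009.l.07 was larger by 1.25 in stage I-II than in stage III (limma adjusted p = 0.00043), with 4.67 for stage I-II and 3.42 for stage III. The fall of tcbk0040.p.09 was larger as well, with -3.41 for stage I-II tissue and -1.99 at stage III (difference -1.43, limma adjusted p = 9.4e-05). No label links an array to a fish, so the stages and the animals that supplied them cannot be separated.

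**Figure D3:**
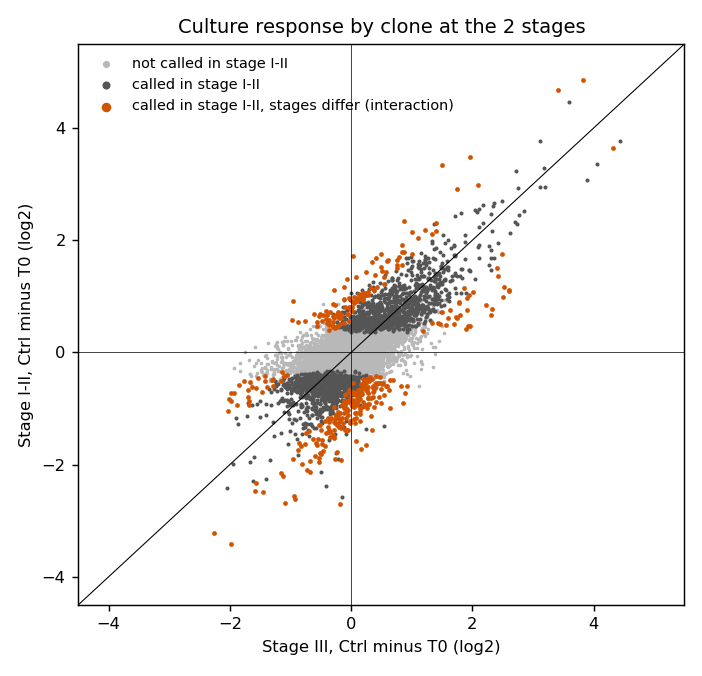
Culture response (Ctrl minus T0, log2) of each clone in stage I-II on the vertical axis against stage III on the horizontal axis, with the line of equal response. Of the 2254 clones called in stage I-II (dark), the 373 for which the stages differed by the interaction test are in orange.

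The next question was whether FSH or LH brought the changed clones back. Most of them passed no test against Ctrl with either hormone. Of the 2254 changed clones, 63 were called with FSH in the direction of T0 (2.80%) and 37 away from it (1.64%). The other 2154 were not called against Ctrl. Over all clones FSH called 1.71% in both directions together, 1.11% higher and 0.599% lower. With LH, 52 of the changed clones were called towards T0 (2.31%) and 44 away from it (1.95%), and 2158 were not called. Over all clones LH called 2.97% in both directions together, 1.66% higher and 1.31% lower. The LH counts moved widely with the setting: 175 towards and 165 away with array weights, 128 and 134 in a fit of the compared groups alone, and 15 and 14 with the control level as a covariate. Each setting counts over its own culture-changed clones, which were 31.3%, 35% and 17.4% of those tested, beside 27.6% in the main fit. Array weights gave 96 and 60 for FSH. The share of all clones that either hormone called was not counted in these settings, so these counts have no such share beside them. Single arrays mattered for LH too: without Ctrl replicate 23 the count towards T0 was 34, and without LH replicate 32 the count away from it was 24. These comparisons share the 6 Ctrl arrays with the culture comparison, which favours calls towards T0. The median change with FSH was 0.008 among the higher and 0.006 among the lower clones, and with LH it was 0.04 and 0.051.

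By direction, 28 of the 1142 higher clones were lower with FSH (2.45%), where 0.599% of all clones were lower, and 26 were higher still (2.28%), where 1.11% of all were higher. Of the 1112 lower clones, FSH raised 35 (3.15%) and lowered 11 further (0.989%). LH lowered 17 of the higher clones (1.49%, beside 1.31% of all clones) and raised 30 (2.63%, beside 1.66%). It raised 35 of the lower clones (3.15%) and lowered 14 (1.26%). Between the hormones, 31 clones were called towards T0 with both and 19 away from it with both. None went towards T0 with FSH and away with LH or the reverse. The Ctrl mean is subtracted in the FSH and in the LH comparison alike. An error in it favours joint calls in the same direction and works against opposite ones. These joint counts alone therefore cannot show that the hormones act alike. Joint calls over all clones were not counted, so the joint counts have no such share beside them.

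The stage III hormone comparisons share no Ctrl or T0 mean with the choice of the clones. For stage III, towards T0 means only the direction opposite to the clone's stage I-II culture call. No stage III T0 level was compared. Of the 2254 clones, 929 had no stage III culture call and 31 had the opposite one. FSH against Ctrl in stage III called 42 of the 2254 towards T0 (1.86%) and 40 away (1.77%). Over all clones it called 1.38% in both directions together. LH called 18 towards T0 (0.799%) and 11 away (0.488%), and over all clones 0.563% in both directions together. Of the clones higher in stage I-II Ctrl, stage III FSH lowered 29, where it lowered 0.612% of all clones, and raised 28, where it raised 0.771%. Of the lower clones it raised 13 and lowered 12. Stage III LH lowered 6 of the higher clones, beside 0.122% of all clones, and raised 11, beside 0.440%. It raised 12 of the lower clones and lowered 0. Without stage III Ctrl replicate 55 the LH count towards T0 was 11. With each comparison fitted on its own groups, so that stage III had no part in the choice, FSH called 24 towards T0 and 20 away and LH 6 and 4. These counts are over the clones called for culture in that fit, 35% of those tested. The share of all clones that either hormone called in that fit was not counted. In the fit of all arrays the counts towards and away from T0 with FSH were thus nearly equal. Of the 63 clones called towards T0 with FSH in stage I-II, 33 were called the same way with FSH in stage III and 0 the opposite way (limma). For LH these counts were 12 and 0 of 52. Among clones called away from T0, 18 of 37 with FSH and 8 of 44 with LH were called the same way in stage III.

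**Figure D4:**
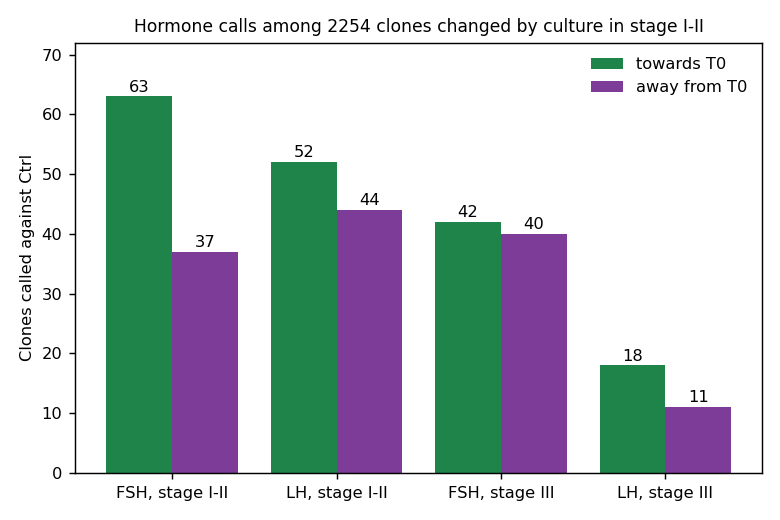
Number of the 2254 clones changed by culture in stage I-II that were called against Ctrl towards T0 (green) or away from T0 (purple), for FSH and LH at either stage. At both stages, towards T0 means the direction opposite to the stage I-II culture change. The stage I-II counts share the Ctrl arrays with the choice of the clones, and the stage III counts of 42 and 40 for FSH and 18 and 11 for LH do not.

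Most changed clones still differed from T0 in tissue with hormone. With FSH, 1916 of the 2254 changed clones (85.0%) were still called against T0 in the same direction, where 30.7% of all clones were called (15.1% higher and 15.7% lower). With LH this held for 1839 (81.6%), where 34.8% of all were called (17.2% higher and 17.6% lower). With the control level as a covariate, culture called 1420 clones, of which 1042 were still called against T0 with FSH and 732 with LH. Of the 526 clones changed at least 2-fold in Ctrl, 518 were still called against T0 with FSH (98.5%) and 517 with LH (98.3%). These counts share the T0 arrays with the culture comparison, which favours the same call. Clones without a call for culture in Ctrl were called against T0 in 596 cases with FSH and 1002 with LH, of 5921. Of the 63 clones called towards T0 with FSH, 38 were no longer called against T0 and 24 still were. Of the 52 with LH, 28 were no longer called and 23 still were. Where a call was made towards T0, the hormone took back a median of 71.1% of the culture change with FSH and 63.7% with LH. These clones were chosen by that change, so the medians are a description.

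A reading per array was made with clones chosen by their stage III change, as the mean of the 1321 clones that rose in stage III culture minus the mean of the 1374 that fell. On it the stage I-II arrays lay at 0.76 to 0.93 with FSH, 0.76 to 0.91 with LH, 0.78 to 0.87 in Ctrl and -0.28 to -0.14 at T0. The 3 cultured groups overlapped and lay apart from T0. Their means were 0.84 ± 0.075 with FSH, 0.80 ± 0.058 with LH, 0.85 ± 0.037 in Ctrl and -0.21 ± 0.073 at T0 (SD, n = 6, 6, 6 and 3). With the T0 mean as 0% and the Ctrl mean as 100%, FSH lay at 99.4% and LH at 96.0% of the way. The arrays within a hormone group were not alike. The LH arrays ran from 91.6% to 105.8%. Of the FSH arrays, replicates 26, 27 and 30 lay at 91.5% to 94.9% and replicates 25, 28 and 29 at 101.8% to 108%. These are the same 2 sets that the third principal component parted. Without replicates 26, 27 and 30, FSH called 30 changed clones towards T0 and lay at 105.6%, beyond the Ctrl mean.

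**Figure D5:**
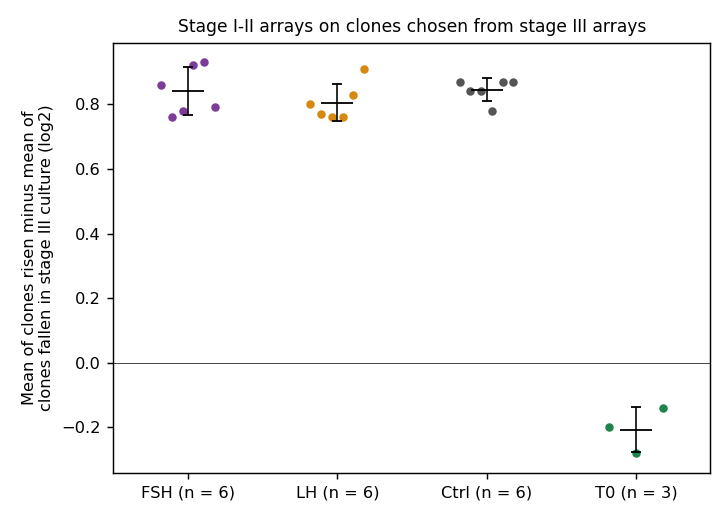
Position of each stage I-II array on the difference (log2) between the mean of 1321 clones that rose and the mean of 1374 that fell in stage III culture, for FSH, LH, Ctrl (n = 6 each) and T0 (n = 3), with mean ± SD. All 18 cultured arrays lie between 0.76 and 0.93 and the T0 arrays between -0.28 and -0.14.

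A few clones differed widely between hormone and Ctrl. The clone with the greatest FSH change towards T0 was tcad0007.d.07, which fell below background in Ctrl and was measured again with hormone. It ran from 6.92 over a median of 7.07 to 7.44 with FSH and from 6.45 over 6.78 to 7.10 with LH. In Ctrl it ran from 5.58 over a median of 5.72 to 5.98, and at T0 it read 7.57, 7.21 and 7.43. All FSH and LH arrays lay above all Ctrl arrays, and no Ctrl array was above background. Ctrl was at least 1.99-fold lower than T0 (limma adjusted p = 1.5e-10), and FSH was at least 1.65-fold and LH at least 1.29-fold higher than Ctrl (limma adjusted p = 9.5e-10 and 3.4e-06). Against T0 the FSH arrays gave a log2 change of -0.26 that did not pass the test (limma adjusted p = 0.25), and the LH arrays remained lower by -0.63 (limma adjusted p = 0.0034). In stage III FSH and LH were also called higher than Ctrl for this clone (limma adjusted p = 0.0055 and 0.0030). No stage III Ctrl array and 2 of 6 stage III FSH arrays were above background, so no size is given.

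Under LH the greatest change towards T0 was that of 1rt65f10_d_c05, among the brightest clones of the array. It ran from 13.96 over a median of 14.09 to 14.67 with LH, against 12.66 over 12.93 to 13.30 in Ctrl. At T0 it read 14.28, 14.83 and 14.83. All LH arrays lay above all Ctrl arrays (log2 change 1.31 ± 0.17 SE, limma adjusted p = 4.0e-07), which is 76.4% of the culture change of -1.72 (limma adjusted p = 4.2e-09). FSH raised it by 1.07 (limma adjusted p = 2.2e-05). The 6 highest values of the table are the same on all 42 arrays, so readings this high are ranks more than levels. In stage III Ctrl and T0 averaged 13.68 ± 0.26 and 13.51 ± 0.22 (SD, n = 6 and 3; log2 change 0.17, limma adjusted p = 0.57), and the culture response differed between stages by -1.89 (limma adjusted p = 2.8e-05). Neither LH (log2 change 0.37, limma adjusted p = 0.45) nor FSH (0.17, limma adjusted p = 0.95) passed the test against Ctrl in stage III.

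The greatest change away from T0 was that of tcbk0013.j.13 with both hormones. It ran from 10.46 over a median of 10.64 to 11.30 with FSH and from 10.28 over 10.88 to 11.01 with LH. In Ctrl it ran from 7.03 over a median of 7.38 to 7.81, and at T0, where no array was above background, 5.59, 6.17 and 5.25. The hormone arrays, the Ctrl arrays and the T0 arrays form 3 levels without overlap. Culture alone raised the clone at least 1.87-fold (limma adjusted p = 4.2e-09). FSH and LH then raised it 10.1-fold and 10.2-fold over Ctrl (limma adjusted p = 4.6e-20 and 3.4e-20). In stage III both hormones were also called higher than Ctrl for this clone (limma adjusted p = 3.5e-16 with FSH and 2.3e-18 with LH). There 3 of 6 Ctrl arrays were above background, so no size is given. For culture in stage III it did not pass the test (log2 change 0.03, limma adjusted p = 0.92). The stages differed in the interaction test of the culture response (limma adjusted p = 0.00013). Since T0 readings not above background enter that difference, its size is not read.

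Clone tcad0004.b.04, named because it stood alone and after its values were seen, crossed its T0 level with both hormones. Its mean was 8.26 ± 0.12 with FSH, 8.29 ± 0.25 with LH, 7.26 ± 0.13 in Ctrl and 7.62 ± 0.29 at T0 (SD, n = 6, 6, 6 and 3). Its call for culture was marginal (log2 change -0.36, limma adjusted p = 0.049) and was lost in 12 of 20 other settings, where the adjusted p ran from 7.5e-05 to 0.398. Without T0 replicate 1 the change was -0.20. Its matched position touched a spot 8.16 times brighter and was not the nearest in profile.

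FSH and LH were also compared with each other over the changed clones, a comparison of means that uses no Ctrl or T0 array. It called 3 of the 2254 clones in limma, beside 5 calls (0.0612%) over all clones. An unadjusted p under 0.05 was found for 294 of the 2254. That share was not counted over all clones, so the 294 cannot be read as particular to the changed clones. Without FSH replicates 26, 27 and 30 the comparison called 85 changed clones, and its calls over all clones were not counted in that setting. On the third principal component these replicates lay at 11 to 19.2 and the LH arrays at -4.1 to 14.8. The FSH arrays kept lay at -12.8 to -4.6, below every LH array. Whether the 85 calls come from this split of the FSH arrays was not tested. All 3 clones called with every array in the fit had risen in culture and were lower with FSH than with LH. They are named here after their values were seen. Clone tcam0002.g.21 averaged 9.22 ± 0.26 with FSH and 9.82 ± 0.19 with LH (SD, n = 6 each; log2 change -0.60, limma adjusted p = 0.035), beside 10.26 in Ctrl and 8.80 at T0. The FSH arrays ran from 8.78 to 9.59 and the LH arrays from 9.55 to 10.12, which overlap. For 1rt104l03_b_f02 and tcay0006.p.19 the log2 change was -0.65 and -0.53 (limma adjusted p = 0.029 and 0.035). Each of these calls was lost in 7 to 9 of 12 fits without 1 array, and FSH replicates 25, 26 and 28 and LH replicates 31, 32, 34 and 36 each ended all 3. They were also lost at the matched scanner positions (limma adjusted p = 0.33 to 0.903).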

How the data were processed

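Messenger RNA was measured on 42 membranes with 9216 positions each. The authors deposited 1 table of log2 values, for which no source used here states the normalization, and, per the file headers, 1 AGScan export of spot intensity per membrane. The table ran in the same direction as the scanner intensity, with clones not centred, column medians of 7.15 to 7.17 and the 6 highest values equal on all arrays. A linear model with 8 group means was fitted to 8175 clones over 42 arrays (limma 3.58.1, R 4.3.3, empirical Bayes, two-sided). The number of arrays limits the precision.

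The exports name positions and not clones. Clones were paired with positions by the least summed squared difference of profiles. The chosen position was the nearest in profile for 93.3% of clones. For 85.0% of clones next to each other in the table, row and column within the block differed by at most 1. Such neighbours could lie in different blocks, and in shuffled order the share was 5.8%. Positions A07, A11 and A12 of each block, which received 1 clone, were for that reason treated as the controls. A clone was above background where its position exceeded the A07 median plus 3 scaled median absolute deviations. Bounds use, per array, the higher of the clone's value and the table value at the rank of that threshold.

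Clones named are, by a fixed rule, the 2 that rose most and the 2 that fell most in culture, and for each hormone the greatest called change towards and away from T0 among changed clones. The comparison, the clones and the lists were chosen with earlier results of these data known. The fit was tested on simulated data. The other settings are given in the closing section.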

Additional observations from a re-analysis of the deposited data

Results flagged for a closer look

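Single arrays stood apart from the other 5 of their group in 5 of 42 groups checked, and chance alone gives about 1 in 20. In Ctrl, replicate 23 read 8.86 for tcbk0040.p.09, where the next array read 8.50. Ctrl replicate 21 read 10.76 for tcam0002.g.21, with the next at 10.23. For tcay0006.p.19 Ctrl replicate 19 read 8.04, with the next at 7.85. The control positions gave 420 intensity units on Ctrl replicate 19 and 284.5 on the next array. On the stage III reading Ctrl replicate 22 lay at 0.7775, below the next at 0.8383.

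The culture response of 7 named clones differed between stage I-II and stage III by the limma interaction test. The differences were 1.25 for tcay0009.l.07, 1.02 for tcbk0019.f.14 and 1.69 for tcbk0013.j.13. They were -1.43 for tcbk0040.p.09, -0.96 for tcba0024.p.18, -0.88 for tcad0007.d.07 and -1.89 for 1rt65f10_d_c05. The limma adjusted p ran from 2.8e-05 to 0.015. These clones were named by changes on stage I-II arrays that enter the test, so the choice favours a larger response in stage I-II. In 3 of the 7 a group was not above background, so the value is a difference of readings and its size is not that of a measured response: T0 at both stages for tcbk0019.f.14, stage I-II T0 for tcbk0013.j.13, and Ctrl at both stages for tcad0007.d.07.

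The control positions, taken to hold no clone, entered the fits only as a covariate in an alternative. They averaged 285 ± 69.9 intensity units in Ctrl and 730 ± 206 at T0 (SD, n = 6 and 3 arrays), so that T0 was 2.56 times as high.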

How the results depend on the processing

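No paired analysis was possible because the groups share no replicate numbers. No change of a named clone turned its sign in any setting run. The balance of counts did turn. Culture gave 1399 higher and 1465 lower with the compared groups alone and 1262 and 1295 with array weights. It gave 1405 and 1535 at matched scanner positions and 1469 and 1645 over all positions. The scanner signals were also equalised by rank between arrays, so a shift common to most clones could not show there either. The 4 clones with the greatest culture changes kept their calls in every setting that held them, with log2 changes of 4.55 to 4.79 for tcay0009.l.07, 4.72 to 4.98 for tcbk0019.f.14, -3.56 to -3.09 for tcbk0040.p.09 and -3.38 to -3.11 for tcba0024.p.18. The settings on touching spots, control level, closest matches and FSH replicates 26, 27 and 30 were chosen after seeing the data. In each setting, counts among changed clones are over the clones that setting called for culture. The share of all clones called with FSH or LH was not counted in these settings. Where a count moved, the cause was not tested. Some settings tested fewer clones, used fewer arrays or had a stricter threshold. At an adjusted p under 0.01, culture called 1457 clones (651 lower). FSH then called 29 towards and 22 away from T0, LH 21 and 16, FSH against LH 0, and 1246 (FSH) and 1219 (LH) still differed from T0. In stage III, 805 had the same and 10 the opposite call, FSH called 24 towards and 22 away, LH 8 and 7, and the stages differed for 316 clones, 174 of them changed. With the control level as covariate, culture called 1420 (653 lower), LH 15 towards and 14 away, and FSH against LH 0. Against T0, 1042 (FSH) and 732 (LH) remained called, and stage III gave 695 same and 6 opposite calls. Without clones touching a spot over 4 times brighter, culture called 1380 (760 higher, 620 lower), FSH 41 towards, 1205 (FSH) and 1155 (LH) differed from T0, FSH against LH called 6 and LH lay at 99.8% of the way to Ctrl. For the closest matches, culture called 1318 (706 higher, 612 lower), FSH 35 and LH 33 towards, 1134 (FSH) and 1075 (LH) differed from T0, 811 had the same stage III call, stage III FSH called 23 towards, and the stages differed for 430 clones, 244 of them changed. Array weights gave 96 towards and 60 away with FSH, 175 and 165 with LH, 7 for FSH against LH and 48 opposite in stage III. Fitting the compared groups alone gave 128 towards and 134 away with LH, 0 for FSH against LH, and in stage III 24 and 20 with FSH and 6 and 4 with LH. Scanner signal at matched positions gave 101 towards and 56 away with FSH, 64 opposite in stage III, 61 away with stage III FSH, 29 towards and 19 away with stage III LH, and 1053 clones, 636 of them changed, that differed between stages. Over all clone positions these were 104, 57, 62, 63, 32, 19, 1052 and 633. Above the median level 714 clones were lower. FSH against LH called 5 there, with cyclic loess and with export order as a block, and 6 with median centring or a trended robust fit. Without FSH replicates 26, 27 and 30, FSH called 30 towards T0 and lay at 105.6%, and FSH against LH called 85. Leaving out 1 array at a time gave 713 to 1055 lower clones in culture (fewest without T0 replicate 2), 34 to 65 towards and 24 to 61 away with LH, 0 to 5 for FSH against LH, 11 to 20 towards with stage III LH and 93.9% to 99.6% for LH on the stage III reading. Signal near background limits the dim clones.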
